A study of Homo sapiens with 32 samples.

Results

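R1881-repressed sites are transcription start sites of LNCaP cells whose tag level was strongly reduced after 48 h and 72 h with the synthetic androgen R1881. They were measured by cap analysis of gene expression (CAGE), a method that reads the capped start of each RNA and so maps where transcripts begin. A cluster of start positions was a member when its mean at 0 h was at least 15 RPM (tags scaled to a common library total) and when, within replicate 1 and within replicate 2 alike, the levels at 48 h and at 72 h, each plus 1 RPM, were at most 0.25 times that of 0 h plus 1 RPM. This took 126 of the 19534 clusters in the R1881 table, or 1.56% of the 8057 clusters with a 0 h mean of at least 15 RPM. The 0 h, 48 h and 72 h libraries therefore chose the members, and every value set against 0 h below is a description of that choice rather than a test of it.

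LNCaP cells are a human prostate cancer line that responds to androgen. The R1881 table holds 14 LNCaP libraries: 0 h, 3 h, 6 h, 12 h, 18 h, 48 h and 72 h of R1881, with 2 replicates each and no vehicle library after 0 h. The dose is labelled 1 nM for each library, whereas the treatment protocol names 10 nM for 24 h. The second table holds LNCaP and BicR libraries. BicR is a second line labelled as prostate cancer, and its name is not explained there. Each line was given 10 nM DHT with 1 µM bicalutamide, 10 nM DHT, 1 µM bicalutamide or ethanol for 6 h or 24 h, or was left untreated at 0 h, with 1 library for each condition and 18 in all. All cells were kept for 3 days in charcoal-treated serum, which is depleted of steroids, before treatment. Nothing in the labels says that replicates came from separate cultures, so p-values measure the spread between these libraries only.

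The androgen receptor is a steroid hormone receptor that binds DNA once it has bound androgen. DHT is its main natural ligand in the prostate, R1881 is a synthetic one that cells metabolise slowly, and bicalutamide is an antagonist that competes for the same pocket. The receptor is best known as an activator in prostate cells, but androgen also lowers the activity of many start sites. The tables name sites by hg19 position and strand and pair none with a gene, so the sites are given here by chromosome, start, end and strand, counted from 1 on hg19, without gene names, exon or intron annotation or promoter sequence.

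The R1881 libraries held 128463 to 3837493 tags and the LNCaP and BicR libraries of the second set 4139807 to 7753336. The shallowest were 6 h and 18 h of replicate 1, in which 1 tag was worth 5.70 and 6.48 RPM, so low levels there move in coarse steps. The 6 h and 18 h libraries of replicate 2 stood apart from their own replicate: over all clusters their log2(RPM + 1) values correlated at 0.952 with each other but at 0.803 to 0.884 with the other replicate 2 libraries, which correlated at 0.872 to 0.967 among themselves. In the second table, one BicR library, given DHT plus bicalutamide for 6 h, correlated at 0.846 to 0.919 with the other libraries, against 0.950 to 0.989 among the other BicR libraries.

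The members were ordinary in width and lay on many chromosomes, though not evenly. Chromosome 18 held 7.14% of them against 1.26% of the other clusters with a 0 h mean of at least 15 RPM. Chromosome 6 held 9.52% against 4.72% and chromosome 4 7.94% against 3.29%. Groups of nearby members, described below, gave 5 of the 9 members on chromosome 18, 9 of the 12 on chromosome 6 and 4 of the 10 on chromosome 4. These shares thus count nearby start sites separately. Other chromosomes held less than their share, such as chromosome 1 with 7.94% against 10.8% and chromosome 14 with 0.79% against 3.45%. Their median width was 174.5 bp (quartiles 122 and 242 bp), against 176 bp (129 and 244 bp) in the 7931 other clusters with a 0 h mean of at least 15 RPM. There were 60 on the plus strand and 66 on the minus strand. Joined at gaps of up to 100000 bp, they formed 100 loci, of which 85 held 1 member and 15 held 2 or more, with 41 members in all. At 0 h the members averaged 15.1 to 1369 RPM, with a median of 44.5 RPM. At 48 h the median of their means was 3.61 RPM and at 72 h 2.58 RPM, with highest means of 136 and 127 RPM. At 72 h, 10 members had no tag in either library, and at 48 h 7. For 3 of them, all 4 libraries of 48 h and 72 h were at 0, which allows up to 3 tags per library, or 4.59 and 0.807 RPM at 48 h and 3.04 and 0.691 RPM at 72 h in replicates 1 and 2. That limit covers counting error only.

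The limit of 0.25 times cuts through a continuous range. Just inside it, chr1:43824499-43824687 on the plus strand reached 24.95% of its 0 h level at its highest, chr6:30658671-30658801 on the minus strand 24.8% and chr1:45205453-45205649 on the plus strand 24.8%. Just outside it, chr2:172290485-172290652 on the minus strand reached 25.3%, as did chr16:28303345-28303464 on the minus strand and chr2:10262800-10262953 on the plus strand. There were 41 members over 20% and 33 other clusters over the limit and at most 30%.

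The brightest members covered the whole range of timing. The member with the highest level at 0 h was chr2:237478373-237478571 on the plus strand. In replicate 1 it had 1463, 661, 331, 149, 38.9, 33.6 and 48.7 RPM at 0, 3, 6, 12, 18, 48 and 72 h. In replicate 2 it had 1275, 592, 386, 237, 171, 158 and 118 RPM at the same times. Both replicates were below 0.5 times their 0 h level at the first time sampled, and the fall then continued to 18 h.

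The next was chr9:140063396-140064406 on the minus strand, the widest member at 1011 bp. It had 855, 703, 410, 391, 181, 122 and 168 RPM in replicate 1 over the 7 times. In replicate 2 it had 787, 595, 101, 400, 80.7, 151 and 85.0 RPM. The 6 h and 18 h values of replicate 2 lay below the times on either side of them, in the libraries that stood apart.

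A slower member was chr1:222867611-222868200 on the minus strand. It had 752, 728, 787, 415, 117, 7.64 and 4.06 RPM in replicate 1 and 575, 585, 520, 169, 104, 3.23 and 0.691 RPM in replicate 2. It thus held its level through 6 h in both replicates and had the lowest means of the 8 brightest members at 48 h and 72 h. A later fall still was that of chr7:134644514-134644843 on the plus strand. It had 302, 475, 490, 380, 110, 13.8 and 19.3 RPM in replicate 1, and 413, 459, 709, 264, 227, 24.5 and 20.3 RPM in replicate 2. It was above its 0 h level at 3 h and 6 h in both replicates before it fell.

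The remaining bright members were chr1:20811939-20812857 on the minus strand, chr8:128748440-128748836 on the plus strand and 2 on chromosome 6. The first had 792, 711, 416, 258, 117, 27.5 and 28.4 RPM in replicate 1 and 489, 428, 127, 78.6, 28.0, 23.1 and 27.6 RPM in replicate 2. It fell steadily from 6 h on. The chromosome 8 member had 352, 225, 108, 98.3, 77.8, 39.7 and 35.5 RPM in replicate 1 and 533, 236, 46.7, 145, 31.1, 25.8 and 11.5 RPM in replicate 2. It was below 0.5 times from 6 h in both.

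The onset of the fall was taken as the first time from which a member, plus 1 RPM, stayed at or below 0.5 times its 0 h level in both replicates. By this measure 6 members began at 3 h, then 22 after 6 h, 28 after 12 h, 42 after 18 h and 28 after 48 h, so that 56 of 126 were down by 12 h and 98 by 18 h. The 6 h and 18 h classes rest on libraries that were shallow in replicate 1 and stood apart in replicate 2. With those 2 times left out, 6 members began at 3 h, 51 at 12 h and 69 at 48 h, so that 57 were down by 12 h. On the log2(RPM + 1) scale, the median change in replicate 1 was -0.37, -0.89, -1.61, -3.14, -3.40 and -3.29 at 3, 6, 12, 18, 48 and 72 h. In replicate 2 it was -0.39, -1.05, -1.38, -2.10, -3.03 and -3.68. The other clusters with a 0 h mean of at least 15 RPM had medians between -0.43 and 0.06 at every time and replicate. Together the members held 11723 RPM in replicate 1 at 0 h and 898 RPM at 72 h, and 13830 RPM and 755 RPM in replicate 2.

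**Figure D1:**
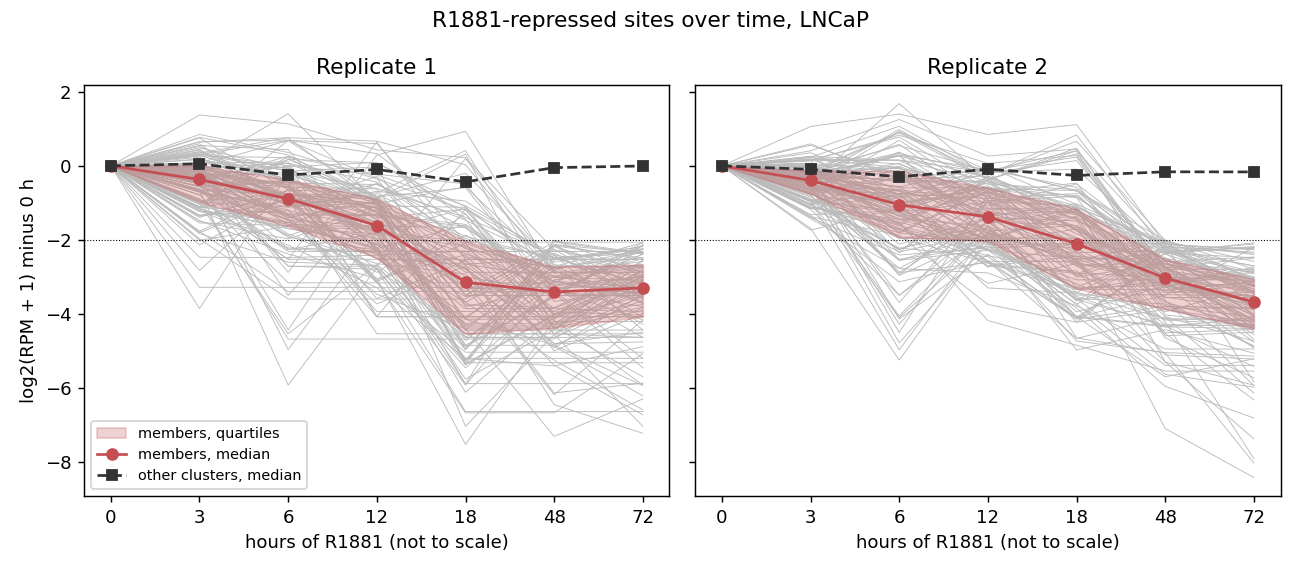
Change of the 126 members from 0 h on the log2(RPM + 1) scale (vertical axis) at each time of R1881 (horizontal axis, not to scale), for replicates 1 and 2. Grey lines are members, the red line and band their median and quartiles, black squares the median of the 7931 other clusters with a 0 h mean of at least 15 RPM, and the dotted line the limit of 0.25 times. The members' median is already below 0 at 3 h and falls through 18 h, while the other clusters stay between -0.43 and 0.06.

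The 6 members with an onset at 3 h included the brightest one above and a pair on chromosome 8. At chr8:128748246-128748395 on the plus strand, replicate 1 had 131, 22.9, 22.8, 23.9, 25.9, 7.64 and 7.10 RPM over the 7 times, and replicate 2 had 147, 45.0, 2.92, 37.7, 3.73, 5.92 and 3.45 RPM. Most of its fall was therefore complete at the first time sampled. At chr3:128211887-128212103 on the minus strand, replicate 1 had 409, 181, 125.4, 95.7, 58.3, 13.8 and 17.2 RPM, and replicate 2 had 197, 77.5, 21.6, 32.2, 6.83, 10.8 and 6.45 RPM. The others were chr8:128750403-128751268, chr7:1126713-1126834 and chrX:44734042-44734271, all on the plus strand, with 0 h means of 38.9, 17.8 and 15.2 RPM.

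By the mean of the 2 replicates, the largest changes at 6 h were at chr16:3030376-3030499 on the minus strand (-4.00 log2 units), chr7:50861047-50861193 on the minus strand (-3.94), chr8:128748246-128748395 (-3.86) and chr20:62372582-62372796 on the plus strand (-3.53). The first had 10.3, 10.4, 0, 5.32, 6.48, 0 and 0 RPM in replicate 1, and 47.9, 36.1, 1.17, 27.5, 3.11, 2.69 and 0.691 RPM in replicate 2. Its 6 h value was lower than its 12 h value in both. In replicate 2 it stayed below 0.5 times its 0 h level from 18 h on. Replicate 1 had 6.48 RPM at 18 h, the worth of 1 tag, so the onset over both replicates was 48 h. The chromosome 7 member had 59.3, 37.5, 0, 7.97, 0, 6.11 and 8.12 RPM in replicate 1, and 43.8, 24.0, 10.5, 10.6, 10.6, 6.45 and 7.14 RPM in replicate 2. It was already lower at 3 h in both replicates, and stayed below 0.5 times its 0 h level from 6 h on. The 0 RPM at 6 h in replicate 1 allows up to 3 tags, or 17.1 RPM. The ranking rests on the 6 h libraries, of which replicate 1 was shallow and replicate 2 stood apart.

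**Figure D2:**
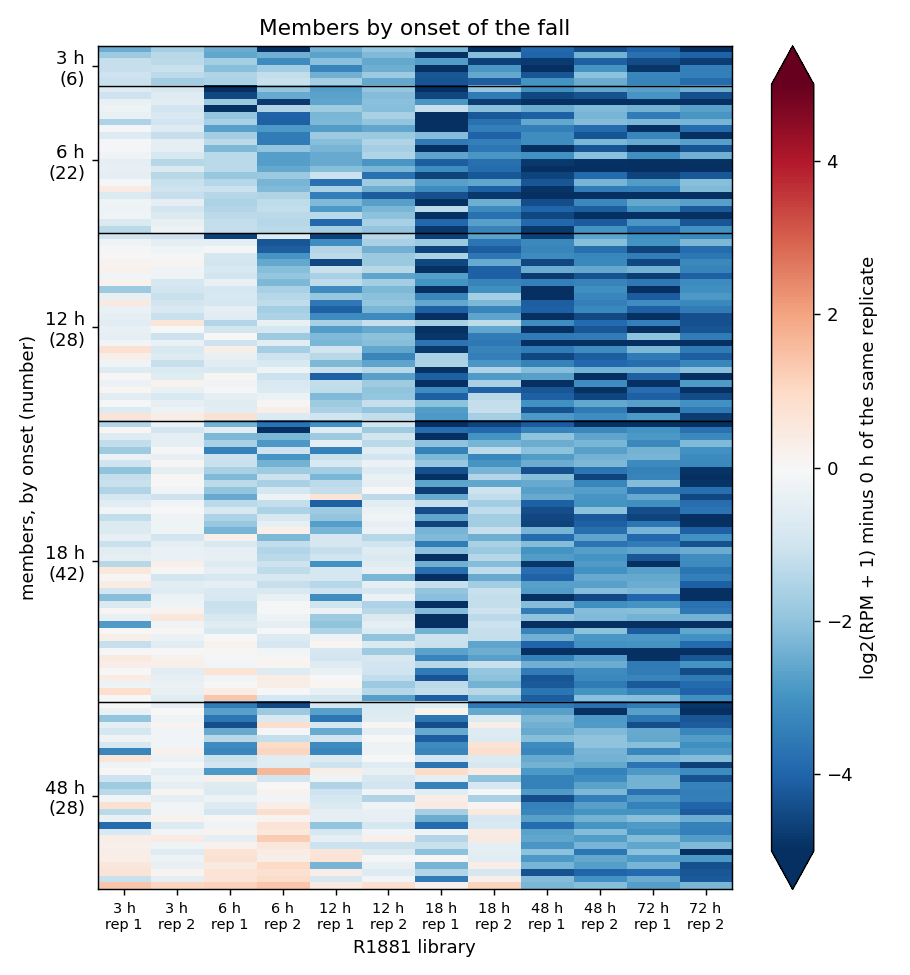
Change from 0 h of the same replicate on the log2(RPM + 1) scale (colour) for the 126 members (rows, grouped by onset with the number in each group) in the 12 libraries after 0 h (columns). The 6 members with an onset at 3 h are blue throughout, and the 28 with an onset at 48 h are pale in replicate 2 at 3 h and 12 h.

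The libraries of 3 h to 18 h took no part in choosing the members, so a comparison among them is free of the rule. In log2(RPM + 1), 120 of 126 members were lower at 12 h and 18 h than at 3 h and 6 h, with a median of -1.22, against 4396 of the 7931 other clusters, with a median of -0.06. In edgeR's quasi-likelihood fit of these 8 libraries without a filter on low counts, 125 of 126 members had a negative fitted change. None of the 105 members that passed the filter had an adjusted p under 0.05, nor did any site lower at 12 h and 18 h (background 0% of 10197 tested). With the replicate as a block 1 member passed (background 0.00981%), and DESeq2 passed 3 members, of 4 lower sites among the 3659 it gave an adjusted p. At an unadjusted p under 0.05, 31 of the 105 were lower, and 398 of all sites tested differed.

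Set against 0 h without a term for the replicate, edgeR called no member lower at 3 h, 6 h or 12 h (background 0% each). It called 13 at 18 h (background 0.275%), 60 after 48 h (0.494%) and 73 after 72 h (0.988%). At an unadjusted p under 0.05, 4, 25 and 50 members were lower at 3 h, 6 h and 12 h, while 269, 2449 and 996 of all 15999 sites differed in either direction. With the replicate as a block, 24 members were called lower at 6 h (background 3.78%), 36 at 12 h (0.331%) and 76 at 18 h (6.63%), and still none at 3 h. The 18 h count was 20 without replicate 1 of 18 h, and 0 without replicate 2 of 18 h or without either library of 0 h. The 0 h libraries entered the rule, and those of 48 h and 72 h did too, so the last 2 times are no test of the members. The backgrounds include the members: 79 and 158 sites in all were called lower at 48 h and 72 h. These counts describe size against spread and are read no further.

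The 2 replicates began from different levels at many members. At 0 h, 44 members were more than 2 times higher in replicate 2, 26 were more than 2 times higher in replicate 1, and 56 lay within 2 times. Of the 44, 4 had an onset by 12 h and 40 at 18 h or 48 h. Of the 26, 18 had an onset by 12 h, as did 34 of the 56 in between. At 12 h the 44 members had a median of -1.47 in replicate 1 and -0.48 in replicate 2, whereas the 26 had -1.81 and -1.97. Because 0 h levels are part of the rule, no test was made of these classes.

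The group with the most members lay on chromosome 6, where 9 members in 3 of the loci fell between positions 26027466 and 27861263, and all 9 were higher in replicate 2 at 0 h, by 2.42 to 12.7 times. At chr6:27114821-27114918 on the plus strand, replicate 1 had 182, 64.6, 34.2, 21.3, 0, 9.17 and 2.03 RPM over the 7 times. Replicate 2 had 1155, 931, 88.7, 585, 45.3, 33.9 and 3.45 RPM. At 12 h replicate 2 was still above the 0 h level of replicate 1. At chr6:26032110-26032385 on the minus strand, replicate 1 had 199, 85.5, 68.4, 50.5, 32.4, 7.64 and 7.10 RPM, and replicate 2 had 1006, 866, 585, 878, 303, 53.2 and 3.22 RPM. Replicate 1 was thus under 0.5 times by 3 h and replicate 2 only at 18 h. Over the 9 members, the median change at 12 h was -2.03 in replicate 1 and -0.40 in replicate 2.

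The same stretch of chromosome 6 held 28 other clusters with a 0 h mean of at least 15 RPM. Of these, 20 were lower over 48 h and 72 h than at 0 h, with a median of -1.05 log2 units over the 28, against -4.07 over the 9 members. Over all 7931 other clusters, 3973 to 4832 were lower in single libraries of 48 h and 72 h, with medians of -0.16 to -0.004. A cluster 63 bp from the member chr6:27861153-27861263 (plus strand), at 27860837 to 27861089 on the opposite strand, averaged 591 RPM at 0 h, 110 RPM at 48 h and 99.2 RPM at 72 h, a change of -2.27 against -3.23 for the member. It was lower too but stayed outside the limit.

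In 4 other groups of 3 or more members, every cluster with a 0 h mean of at least 15 RPM inside the group's own span was a member. On chromosome 18, 5 members on the minus strand lay within 2638 bp, between 70209457 and 70212094, with no other such cluster among them. The brightest, at 70211469 to 70211754, had 176, 133, 68.4, 39.9, 19.4, 1.53 and 2.03 RPM in replicate 1 and 111, 67.1, 18.1, 22.0, 6.83, 0.807 and 0 RPM in replicate 2. The one at 70209457 to 70209665 had 22.1, 25.02, 11.4, 0, 0, 0 and 0 RPM in replicate 1 and 8.26, 9.30, 0.583, 1.57, 0.621, 0 and 0 RPM in replicate 2. The 5 start sites thus went down together, to 1.53 RPM or less at 48 h.

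On chromosome 4, 4 members lay within 2553 bp between 159091683 and 159094235, 3 on the minus strand and 1 on the plus strand, all with an onset at 12 h. On chromosome 19, 3 members on the plus strand lay between 13127131 and 13134830, and their medians at 12 h were -2.79 in replicate 1 and -1.62 in replicate 2. A further cluster on that strand, at 13135901 to 13136346 and 1070 bp from the nearest of them, averaged 32.3 RPM at 0 h and changed by -1.07 over 48 h and 72 h, outside the rule. On chromosome 8, the 3 members between 128748246 and 128751268 had medians of -1.83 and -1.39 at 3 h in replicates 1 and 2, the lowest at that time among the 5 positional groups in both replicates.

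Most near neighbours outside the rule were lower too. Within 10000 bp on the same strand, 15 members had a total of 19 neighbours with a 0 h mean of at least 15 RPM that were not members, of which 15 were lower over 48 h and 72 h than at 0 h, with a median of -0.87. On the opposite strand within 1000 bp, 13 members had 14, of which 13 were lower, with a median of -1.15. A contrast was seen at chr1:84638484-84639014 on the plus strand, which changed by -2.86. A cluster on the same strand at 84639511 to 84640751 averaged 30.5 RPM at 0 h, 39.2 RPM at 48 h and 44.1 RPM at 72 h. Another at 84629826 to 84630138 averaged 63.6, 96.3 and 186 RPM, a change of 1.03. At that locus 1 start site was down while its neighbours were up.

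In the second table, 88 of the 126 members had a site of the same identifier, each a single position inside the cluster, and these are the members described from here on. They share no library with the rule. They were present in both lines: untreated LNCaP had a median of 44.5 RPM (5.05 to 983 RPM) and untreated BicR 42.2 RPM (1.54 to 1742 RPM). Tests used 16 treated libraries in 1 edgeR fit, with the 6 h and 24 h libraries of a treatment standing in for replicates, so a response that differs between 6 h and 24 h adds to the error.

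DHT lowered many of these sites in BicR. In edgeR's quasi-likelihood test, 20 of 88 were lower with DHT than with ethanol at an adjusted p under 0.05 and none was higher (background for lower sites 1.18%). The fitted change was negative at 83 of 88, with a median of -0.66, against -0.01 over all 13214 sites tested, of which 51.1% were negative. Without BicR ethanol at 24 h the median was -0.43 and 64 of 88 were negative. In single libraries, the median change with DHT was -0.44 at 6 h, with 57 of 88 lower, and -0.93 at 24 h, with 84 of 88 lower, on the log2(RPM + 1) scale. Over all positions it was 0.09 and -0.04. The count of called members rested on few libraries: it was 4 without DHT at 6 h, 8 without DHT at 24 h, 10 without ethanol at 24 h, 28 without ethanol at 6 h and 7 without the term for time. The count was 38 without the one BicR library that stood apart, which otherwise enters the shared estimate of error. Over all sites, 156 were called lower in the main fit, 41 without the term for time and 313 without that library.

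The fall in BicR was largest at chr21:30308431-30308556 on the minus strand. It had 14.4 and 14.6 RPM with DHT at 6 h and 24 h, against 78.2 and 136 RPM with ethanol. The DHT libraries were both far under the ethanol libraries, and the fitted log2 change was -2.90 ± 0.46 (SE, edgeR adjusted p = 0.00444). In LNCaP the same site had 70.0 and 56.7 RPM with DHT, against 98.0 and 185 RPM with ethanol, a fitted change of -1.08 ± 0.41 (edgeR adjusted p = 0.772). Both DHT libraries of LNCaP also lay under both ethanol libraries, but the difference did not pass the threshold.

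The most precise fall was at chr3:3841036-3841605 on the plus strand, with 34.7 and 35.0 RPM with DHT at 6 h and 24 h, against 89.7 and 112 RPM with ethanol in BicR (-1.55 ± 0.13, edgeR adjusted p = 3.30e-04). It was also the nearest to the threshold in LNCaP, with 34.3 and 33.4 RPM with DHT at 6 h and 24 h, against 53.1 and 68.2 RPM with ethanol (-0.78 ± 0.13, edgeR adjusted p = 0.0552). At chr4:60495956-60496189 on the minus strand, BicR had 5.81 and 8.88 RPM with DHT at 6 h and 24 h, against 18.7 and 34.4 RPM with ethanol (-1.86 ± 0.22, edgeR adjusted p = 0.00118). LNCaP had 17.2 and 15.6 RPM with DHT, against 18.8 and 22.5 RPM with ethanol (-0.28 ± 0.20, edgeR adjusted p = 0.976). The difference was smaller in LNCaP than in BicR and did not pass the threshold there.

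The brightest of the chromosome 18 group, chr18:70211469-70211754, had 20.8 and 15.5 RPM with DHT in BicR, against 59.9 and 66.8 RPM with ethanol (-1.90 ± 0.44, edgeR adjusted p = 0.0376). In LNCaP it had 91.2 and 51.8 RPM with DHT, against 126 and 123 RPM with ethanol (-0.78 ± 0.39, edgeR adjusted p = 0.975). All 4 shared members of that group were lower with DHT at 6 h and at 24 h in both lines.

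Of the 6 members with the largest mean fall in BicR, the other 3 did not pass the test. At chr20:2310894 on the plus strand, BicR had 7.99 and 2.08 RPM with DHT at 6 h and 24 h, against 16.6 and 26.9 RPM with ethanol (-2.27 ± 0.73, edgeR adjusted p = 0.128). For chrX:44557815 on the plus strand the fitted change was -2.30 ± 0.66 (edgeR adjusted p = 0.0903), and for chr7:50547651 on the minus strand -1.95 ± 0.63 (edgeR adjusted p = 0.132). In all 3 the 24 h difference exceeded that at 6 h. These 3 are given by the start of their cluster.

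A few members went the other way with DHT in BicR, none of them past the threshold. At chr5:57755870 on the minus strand, given by its start, BicR had 58.5 and 30.8 RPM with DHT, against 23.1 and 26.9 RPM with ethanol (0.74 ± 0.23, edgeR adjusted p = 0.119). Fitted changes at the next, chr15:45803292 on the plus strand and chr11:111176045 on the minus strand, were 0.52 ± 0.30 and 0.13 ± 0.24. All 3 sites were members by their levels with R1881 in LNCaP.

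In LNCaP, edgeR called none of the 88 lower with DHT (background 0.00757%), with 11 lower at an unadjusted p under 0.05, at which 736 of all 13214 sites differed. DESeq2 called 1. The fitted change was negative at 69 of 88, with a median of -0.28, against -0.01 over all sites, of which 52.9% were negative. That median was -0.05, with 56 of 88 negative, without LNCaP ethanol at 24 h, and -0.11 without LNCaP DHT at 24 h. In single libraries, 55 of 88 were lower with DHT at 6 h, with a median of -0.07, against 59.6% of all positions with a median of -0.05. At 24 h 75 of 88 were lower, with a median of -0.51, against 57.6% and -0.05. The largest mean fall was at chr10:54789855-54789901 on the minus strand, which had 34.9 and 13.9 RPM with DHT at 6 h and 24 h, against 61.5 and 57.8 RPM with ethanol (-1.30 ± 0.51, edgeR adjusted p = 0.802). The next were chr21:30308431-30308556 above and 2 of the chromosome 18 group.

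The 3 members with the largest mean rise with DHT in LNCaP were chr21:43735479 (0.40 ± 0.36), chr2:216300785 (0.36 ± 0.19) and chr18:65183873 (0.33 ± 0.22), all on the minus strand and given by their starts, with edgeR adjusted p-values of 0.982, 0.975 and 0.975. The last is among the 20 that were lower with DHT in BicR, a call lost in 4 of the other settings. It had 53.4 and 81.1 RPM with DHT there at 6 h and 24 h, against 124.9 and 134 RPM with ethanol. In LNCaP it had 45.2 and 40.7 RPM with DHT, against 31.4 and 38.4 RPM with ethanol. DHT thus stood below ethanol at both times in BicR and above it at both times in LNCaP.

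Whether the DHT response differed between BicR and LNCaP was tested directly, and edgeR called no member (background 0% in either direction). The smallest edgeR adjusted p of a member was 0.416. At an unadjusted p under 0.05 there were 20 members, and 754 of all 13214 sites. DESeq2 called 1. BicR had the more negative fitted response at 76 of 88 members, with a median difference of -0.51, against 49.3% of all sites and a median of 0.01. With 1 library left out that median lay between -0.80 and -0.25. It was -0.25 without BicR ethanol at 24 h, where 56 of 88 were more negative in BicR.

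**Figure D3:**
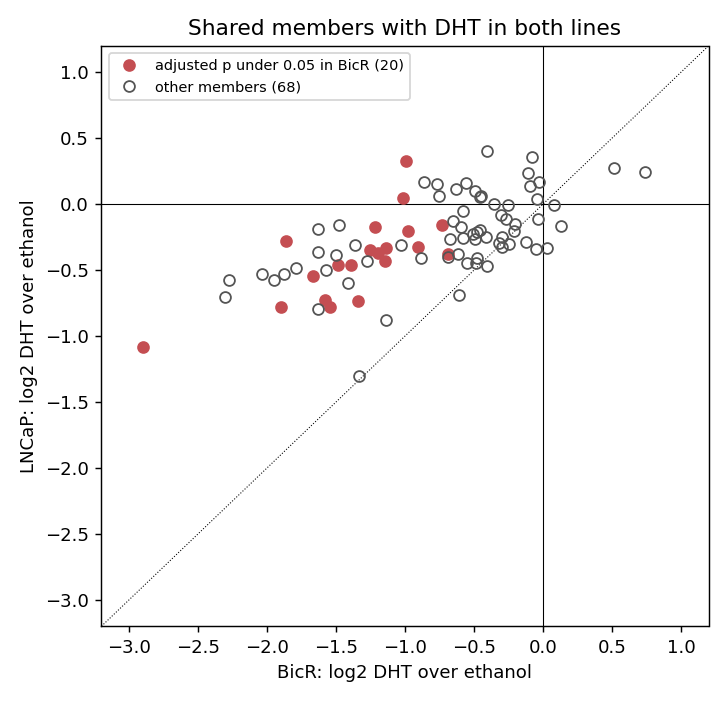
Fitted log2 change with DHT over ethanol in BicR (horizontal axis) and in LNCaP (vertical axis) for the 88 shared members. Filled points passed an adjusted p under 0.05 in BicR, and the dotted line marks equal changes. There are 83 points left of 0 and 69 below 0, and most lie above the dotted line; the test of the difference between the lines called none in edgeR.

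The classes of 0 h level in the time course, which are not classes of onset, were set beside the change with DHT. Over all positions, 38.4% were lower with DHT in BicR at 6 h and 55.5% at 24 h. Of the 30 shared members that were more than 2 times higher in replicate 2 at 0 h of the time course, 10 were lower with DHT in BicR at 6 h and 30 at 24 h, with medians of 0.15 and -0.82. All 8 shared members of the chromosome 6 group are among these 30, and none of the 8 was lower at 6 h. Of the 37 within 2 times, 32 were lower at 6 h and 35 at 24 h, with medians of -0.63 and -0.91. Of the 21 that were higher in replicate 1, 15 and 19 were lower, with medians of -0.71 and -1.32. These are values of single libraries, and the classes were not tested against each other.

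The chromosome 6 group went the same way at every shared member. With DHT in BicR, none of the 8 was lower than with ethanol at 6 h (0.03 to 0.73) and all 8 were lower at 24 h (-1.44 to -1.08). At chr6:26032110-26032385, BicR had 1660 RPM with DHT against 1459 RPM with ethanol at 6 h, and 571 RPM against 1509 RPM at 24 h. In LNCaP it had 826 RPM with DHT against 850 RPM with ethanol at 6 h, and 547 RPM against 481 RPM at 24 h. The ethanol library of LNCaP was itself lower at 24 h than at 6 h there. None of the 8 passed the test in BicR, in which the 6 h and 24 h libraries are averaged, and in LNCaP 4 of 8 were lower at 6 h and 5 of 8 at 24 h.

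With bicalutamide alone in BicR, 75 of 88 members had a negative fitted change over ethanol, with a median of -0.43. Over all sites 49.7% were negative, with a median of 0.00. Without BicR ethanol at 24 h the median was -0.09 and 50 of 88 were negative. In single libraries, 67 were lower at 6 h, with a median of -0.36, against 68.2% of all positions with a median of -0.12. At 24 h 80 were lower, with a median of -0.49, against 45.7% and 0.02. One member passed in edgeR (background 0.0378%), chr3:3841036-3841605, with a fitted change of -0.99 ± 0.13 (adjusted p = 0.0233). DESeq2 called 3 members, of 10 lower sites among all 13214. Without the one BicR library that stood apart, edgeR called 9 members, of 37 lower sites among all 13211. The single call was lost without ethanol at either time, without bicalutamide at 6 h, and without the term for time.

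Bicalutamide and DHT in BicR were set against the same ethanol libraries. At chr21:30308431-30308556, BicR had 21.9 and 40.1 RPM with bicalutamide at 6 h and 24 h, against 78.2 and 136 RPM with ethanol (-1.75 ± 0.42, edgeR adjusted p = 0.190). At chr1:84638484-84639014 it had 7.88 and 12.7 RPM, against 22.0 and 34.3 RPM (-1.40 ± 0.29, edgeR adjusted p = 0.0935). At chr18:70211469-70211754 it had 28.4 and 20.7 RPM, against 59.9 and 66.8 RPM (-1.38 ± 0.42, edgeR adjusted p = 0.388). These 3 were chosen for the size of their change with bicalutamide, and none passed the threshold.

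With bicalutamide alone in LNCaP, edgeR called none of the 88 lower than with ethanol (background 0%). At an unadjusted p under 0.05 there was 1, and 256 of all 13214 sites. DESeq2 called none. A negative fitted change was found at 51 of 88 members, with a median of -0.02, against 51.1% of all sites. The number of members was 23 without LNCaP ethanol at 24 h and 70 without LNCaP ethanol at 6 h. In single libraries, 36 were lower at 6 h, with a median of 0.07, against 56.1% of all positions with a median of -0.03. At 24 h 70 were lower, with a median of -0.19, against 62.3% and -0.06. Among the 3 largest mean changes, chr19:13127131-13127158 had a fitted change of -0.39 ± 0.16, chr4:101982273 on the minus strand, given by its start, 0.43 ± 0.27, and chr21:43735479 0.40 ± 0.36.

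Adding bicalutamide to DHT did not move the members past the threshold in either line. With DHT and bicalutamide over DHT in BicR, edgeR called none higher (background 0.144%), and the median fitted change was 0.10. At an unadjusted p under 0.05 there were 18 members, of which 2 were lower, and 1121 of all 13214 sites. The 6 h and 24 h libraries differed: the median was 0.21 at 6 h and -0.05 at 24 h. Without the library of 24 h, which leaves only the one at 6 h that stood apart, 19 members were called higher, as were 764 of all 13294 sites, and without the library of 6 h the median was -0.21. In LNCaP edgeR called none (background 0%), with 2 at an unadjusted p under 0.05, at which 243 of all 13214 sites differed. A positive fitted change was found at 65 of 88, with a median of 0.14, while 49.4% of all sites were negative. Without LNCaP DHT at 24 h the median of the members was -0.01 and 45 of 88 were negative. At 24 h the LNCaP median was 0.22 over DHT but -0.34 over ethanol, with 18 of 88 lower than with DHT and 73 of 88 lower than with ethanol.

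**Figure D4:**
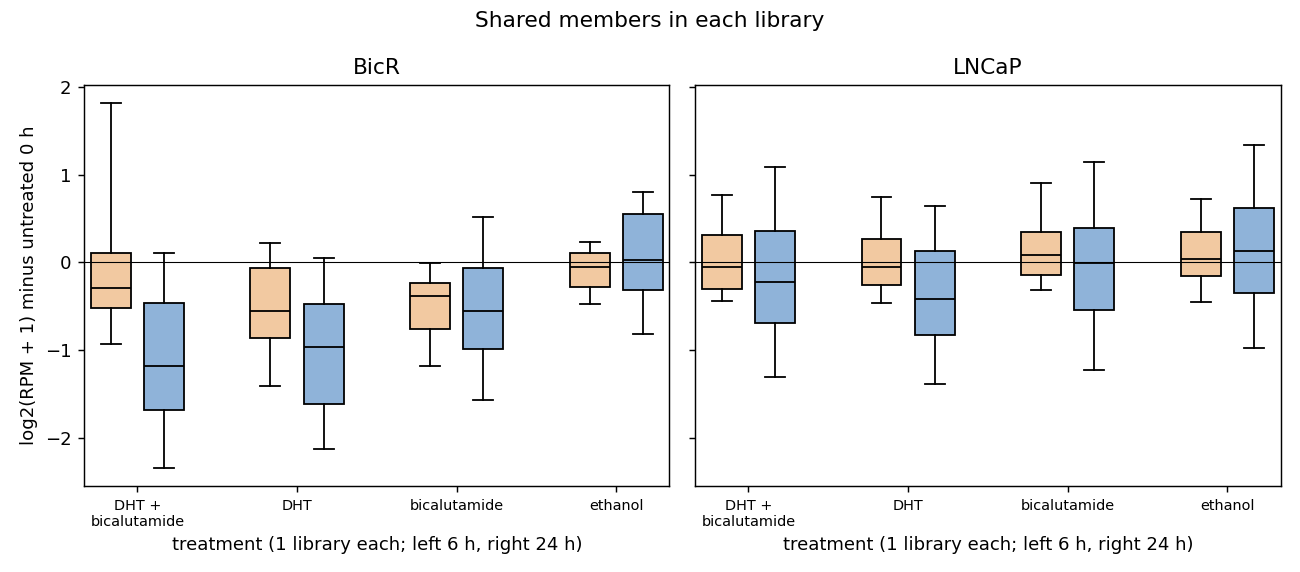
Change of the 88 shared members from the untreated library of the same line on the log2(RPM + 1) scale (vertical axis) in each treated library (horizontal axis), in BicR and LNCaP. Boxes give the quartiles and median, whiskers the 5th and 95th percentiles over members, with 6 h in orange and 24 h in blue. Medians in BicR are -1.18 with DHT and bicalutamide, -0.97 with DHT, -0.56 with bicalutamide and 0.02 with ethanol at 24 h, and in LNCaP -0.23, -0.42, -0.01 and 0.14.

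The members differed between the lines without hormone. With ethanol, 21 of 88 were lower in BicR than in LNCaP (background 5.95%) and 19 were higher (background 5.18%), and the median fitted difference was 0.00. The number past the threshold was 17 to 32 when 1 of the 4 ethanol libraries was left out, with the lowest without LNCaP ethanol at 6 h. The balance of lower and higher members rested on single libraries: 2 were lower and 22 higher without BicR ethanol at 6 h, 24 and 8 without BicR ethanol at 24 h, 15 and 2 without LNCaP ethanol at 6 h, and 9 and 11 without LNCaP ethanol at 24 h. The counts by class of 0 h level in the time course that follow are from the fit with all 4 libraries, and were not made with a library left out. Of the 21 shared members more than 2 times higher in replicate 1 at 0 h, 15 were lower in BicR and none was higher. Of the 30 that were higher in replicate 2, 13 were higher in BicR and 1 was lower. The 8 shared members of the chromosome 6 group are all in this class and gave 7 of the 13, so these are not separate loci. The classes were not counted over all sites. Of the 37 in between, 6 were higher and 5 were lower.

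The largest fitted differences with all 4 libraries were to the low side. At chr3:165555124 on the minus strand, given by its start, BicR had 16.1 and 26.1 RPM with ethanol at 6 h and 24 h, against 501 and 747 RPM in LNCaP (-4.73 ± 0.90, edgeR adjusted p = 0.00775). At chr19:56173269-56173555 on the plus strand, BicR had 6.37 and 6.02 RPM, against 134 and 120 RPM in LNCaP (-4.43 ± 0.70, edgeR adjusted p = 0.00289). The lines did not overlap at either site. To the high side, chr6:27833018-27833136 on the plus strand had 267 and 275 RPM in BicR, against 95.1 and 59.1 RPM in LNCaP (1.98 ± 0.32, edgeR adjusted p = 0.00343). Of the 8 shared chromosome 6 members, 7 were called higher in BicR.

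The one BicR library that stood apart, DHT plus bicalutamide for 6 h, went against its line at the low sites. At chr3:165555124 it had 175 RPM, against 6.78 to 26.1 RPM in the other BicR libraries, and at chr19:56173269-56173555 it had 68.8 RPM, against 1.57 to 8.81 RPM. Of the 21 members lower in BicR with ethanol, it was the highest of the 9 BicR libraries at 16, with a median of 3.18 times the median of the others. The part of this library's difference in the results with DHT and bicalutamide at 6 h was not tested beyond the fits without it.

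**Figure D5:**
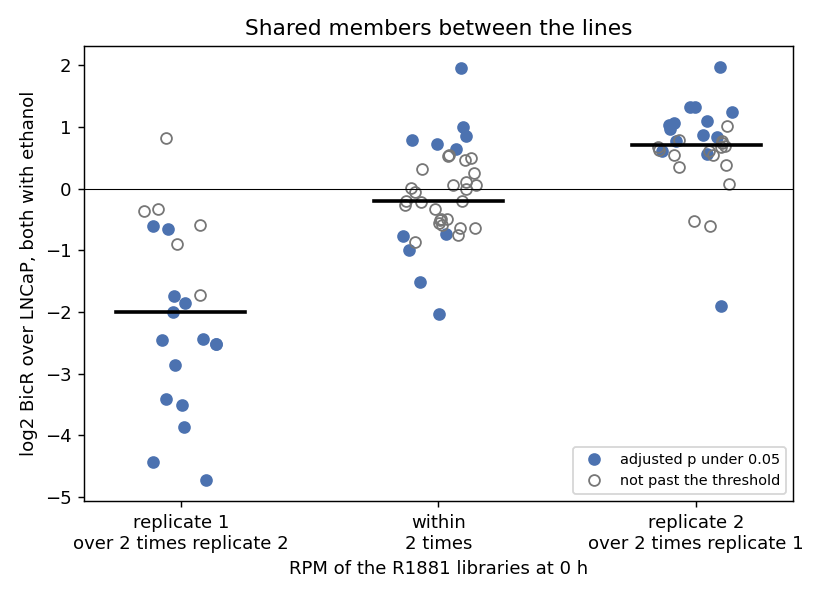
Fitted log2 difference of BicR over LNCaP, both with ethanol (vertical axis), for the 88 shared members in 3 classes by the RPM of replicates 1 and 2 at 0 h of the R1881 time course (horizontal axis). Filled points passed an adjusted p under 0.05 and bars mark medians. The medians are -1.998 where replicate 1 was more than 2 times higher, -0.20 within 2 times and 0.72 where replicate 2 was, with all 4 ethanol libraries in the fit.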

How the data were processed

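CAGE libraries of total RNA were read on a HeliScope sequencer, per the labels' protocols. The deposited tag counts are whole numbers per site, and the deposited RPM values are those counts scaled by 1 factor per library, per the file headers and the values. The genome build is hg19, per the submitters' processing notes; the aligner and the cluster caller are not given in the sources used here. Every column of values was assigned to 1 sample.

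Members were selected on RPM. The members, and the comparisons and lists, were chosen with earlier results of these data known. Log2 changes of single libraries use a pseudocount of 1 RPM. Counts were tested in R 4.3.3 with edgeR 4.0.16 (TMM, quasi-likelihood F test, filterByExpr with a minimum count of 10, Benjamini-Hochberg over all sites tested, threshold 0.05), and SE is the size of the log2 change over the square root of F. The filter kept 15999 of 19534 clusters and 13214 of 13294 positions. The second table had a coefficient for each line and treatment and a term for time in each line. DESeq2 1.42.0 was an alternative, with other size factors, no filter, no time term, the replicate as a block and each library left out. The procedure was tested on simulated data. Tables were written with Python 3.11.15.

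Replicate numbers were taken to pair the R1881 libraries, since deviations of same-numbered libraries correlated in all 21 pairs of times (0.142 to 0.566, median 0.332). Changes from 0 h within a replicate use this pairing. The main edgeR fits of the R1881 libraries had no term for it, and only the fits with the replicate as a block did. Named sites are the 8 brightest members at 0 h, the 4 with the largest fall at 6 h, those with the largest mean changes in the second table, the calls where 5 or fewer passed, and the 3 sites on each side of the limit. Other named sites (the remaining sites with an onset at 3 h, those of the positional groups, their neighbours and the extremes between the lines) were chosen after their values were seen. Gene lists could not be counted, since sites carry no gene names and the gene table used here is of another build.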

Additional observations from a re-analysis of the deposited data

How the results depend on the processing

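The number of members depends on the limits: 423 at a limit of 0.5 times, 43 at the strictest limit tried, 194 with a 0 h mean of at least 5 RPM, 78 with a pseudocount of 3 RPM, and 216 to 273 with 1 replicate alone. Members at or below 0.5 times 0 h by 12 h were 17 at a limit of 0.25 times, and 70 to 86 with 1 replicate alone, against 56. Among 3 h to 18 h, members called lower numbered 1 with the replicate block and 3 in DESeq2. Against 0 h, the replicate block gave 24, 36 and 76 members at 6 h, 12 h and 18 h and left 3 h at 0, and it was not run for 48 h or 72 h; leaving out 1 library gave 0 to 9 at 6 h and 0 to 20 at 18 h. Leaving out both libraries of replicate 2 that stood apart, chosen after seeing the data, the count was 6 at 12 h and 1 at 18 h. With DHT in LNCaP it was 1 in DESeq2 and 1 without the BicR library of DHT plus bicalutamide at 6 h. With DHT in BicR it was 7 without the time term, 38 without that library and 4 to 28 with 1 DHT or ethanol library left out. With bicalutamide in BicR it was 0 without the time term, 3 in DESeq2, 9 without that library and 0 to 1 with 1 library left out. With DHT and bicalutamide over DHT in BicR it was 0 to 19 with 1 library left out. The response to DHT differed between the lines at 1 member in DESeq2. Between the lines with ethanol, 11 members passed without the time term and 17 to 32 with 1 library left out. The cause of these shifts was not tested. No site called with DHT or with bicalutamide in BicR changed sign under any of these settings. With 1 library per condition in the second table, and 1 tag worth 5.70 and 6.48 RPM at 6 h and 18 h of replicate 1, small falls were not detectable.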
